A study of Mus musculus with 48 samples.

Results

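The gluconeogenesis and glucose release genes described here were 9 genes read by 12 probes, of 16593 named genes and 25697 probes on the Illumina mouse arrays. They were chosen by symbol for their role and were Pck1, Pcx, Fbp1, G6pc, Slc37a4, Slc2a2, Creb3l3, Gys2 and Pygl. Slc2a2 had 3 probes, Pygl 2 and each other gene 1. All 9 passed the filter on dim probes in liver, where 9019 genes were tested, and all 9 also passed it in epididymal white adipose tissue, where 10506 were tested.

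The liver makes glucose during food shortage from lactate, amino acids and glycerol, and by breaking down glycogen. Pyruvate carboxylase (Pcx) and phosphoenolpyruvate carboxykinase (Pck1) carry carbon past the irreversible pyruvate kinase step, fructose bisphosphatase (Fbp1) reverses phosphofructokinase, and glucose-6-phosphatase (G6pc) with its transporter Slc37a4 releases free glucose inside the endoplasmic reticulum. Glucose then crosses the plasma membrane through Slc2a2 (GLUT2). In adipocytes the first steps of the same route serve glyceroneogenesis, the making of glycerol phosphate for triglyceride.

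Liver, muscle and epididymal fat came from male mice of 3 months on the C57Bl/6J background. The comparisons ask how transcripts under chronic FGF21 relate to those under nutrient deprivation. In each tissue the labels give 3 arrays of wild-type mice fed ad libitum (AL), 3 of wild-type mice fasted for 24 hr (Fast), 4 of wild-type mice under caloric restriction for 2 weeks (CR), 3 of wild-type controls (WT) and 3 of FGF21-Tg mice. FGF21-Tg mice carry the Fgf21 transgene behind the apoE promoter, which acts in hepatocytes, and WT mice are their littermates. The labels call the diet 40% restriction, whereas the methods describe a ration equal to 40% of the mouse's own earlier intake. CR mice were killed shortly before their daily meal and AL mice had food throughout, so the diet and the time since the last meal cannot be told apart. The feeding state of the WT and FGF21-Tg mice at collection is not given in the sources used here. A replicate is cRNA of 1 to 3 mice, and the p-values measure the spread between such arrays.

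On 12 of the 16 arrays of chips 2 and 3, the adipocyte transcript Adipoq, the muscle transcript Ckm and the hepatocyte transcript Apoa1 went against the labelled tissue. After the labels of these chips were exchanged position by position, all 16 matched, as did all 32 arrays of the other 4 chips without any exchange. Positions C and D of both chips are fat under either reading, so these markers cannot decide the exchange there. All values below use the exchanged labels. Calls of the 9 genes in liver CR were also examined without these chips, and so were those of the listed genes, of which the lost calls are given. In liver the exchange touches only CR replicates 3 and 4, while AL, Fast and CR replicates 1 and 2 share chip 1. WT replicates 1 and 2 lie on chip 4, and WT replicate 3 with all 3 FGF21-Tg arrays on chip 5. Median intensities ran from 182 to 265 over the 48 arrays, with 42.0 to 56.3% of probes detected. Fgf21 in liver had a log2 signal of 7.69 to 9.11 in WT and 15.84 to 15.97 in FGF21-Tg, as labelled. It was 7.33 to 8.41 in AL, 10.12 to 10.3 in Fast and 6.82 to 7.37 in CR.

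A signal is a probe's log2 intensity after background correction and quantile normalization, so a difference of 1 is a 2-fold change, and low signals understate changes. Differences are limma coefficients ± SE, and a gene passed where its p, adjusted by Benjamini-Hochberg over all genes tested in that tissue, was under 0.1. In bulk tissue, fewer cells of a type and less RNA per cell cannot be told apart. The 5 hepatocyte markers tested were called in none of the 3 liver comparisons with controls. Their summed log2 signal was 17.21 to 17.4 on the 16 liver arrays. Apoa1 of this list, at 15.86 to 16.03 in liver, lay near the top of the scale, where changes are understated. The absent calls therefore do not show that the share of hepatocytes was unchanged.

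Promoter sequence was available for 8 of the 9 genes, with 12 annotated starts (RefSeq, GRCm38.p6). The 250 bases before the start are shown for Pck1, which rose in all 3 comparisons with controls, for G6pc, which rose in CR, and for Pygl, which fell in Fast. Capitals mark the cAMP response half-site TGACG and the FOXO insulin response core CAAAACA, on either strand, and TATAAA on the strand shown. The windows are chr2:173152823-173153072 (+) for Pck1, chr11:101367466-101367715 (+) for G6pc and chr12:70227684-70227933 (−) for Pygl.
Pck1: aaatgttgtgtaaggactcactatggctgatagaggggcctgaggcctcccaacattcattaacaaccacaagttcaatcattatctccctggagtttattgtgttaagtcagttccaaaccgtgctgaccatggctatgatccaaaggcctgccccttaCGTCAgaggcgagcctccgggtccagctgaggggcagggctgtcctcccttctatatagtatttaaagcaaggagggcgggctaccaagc
G6pc: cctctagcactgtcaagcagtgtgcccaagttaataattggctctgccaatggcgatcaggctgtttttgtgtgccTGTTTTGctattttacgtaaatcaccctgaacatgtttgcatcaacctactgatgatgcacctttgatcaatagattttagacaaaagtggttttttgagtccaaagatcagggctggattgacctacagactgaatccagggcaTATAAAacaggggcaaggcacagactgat
Pygl: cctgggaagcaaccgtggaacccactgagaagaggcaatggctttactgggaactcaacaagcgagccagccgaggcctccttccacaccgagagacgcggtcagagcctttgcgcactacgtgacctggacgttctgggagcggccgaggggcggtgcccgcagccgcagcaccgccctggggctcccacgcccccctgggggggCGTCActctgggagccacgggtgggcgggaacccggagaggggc
In Pck1 the half-site begins 90 bases before the start, and in Pygl 44 bases before it. In G6pc the FOXO core begins 174 and TATAAA 29 bases before the start. TGACG was in 5 of the 12 windows of these genes (Pck1, Pygl, 1 of 2 for Creb3l3 and 2 overlapping ones of 3 for Slc37a4) and in 17.8% of 32851 windows of all genes. CAAAACA was in 2 of the 12, those of G6pc and Creb3l3, and in 5.56% of all, and TATAAA in 2 of the 12 and 7.59% of all. A match is a description of the letters and not a measured site.

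The response to CR in liver was led by Pck1, Slc37a4 and G6pc. Of the 9 genes 4 rose, where 17.6% of all genes tested did, and 1 fell, where 17.9% did. Their median log2 fold change was 0.28, and over all genes 0.01. Those that rose were the phosphoenolpyruvate step, the pyruvate carboxylase step and both proteins of glucose-6-phosphate hydrolysis, while the gene that fell was the transcription factor Creb3l3.

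Pck1, whose enzyme makes phosphoenolpyruvate, had a log2 signal of 10.58, 11.1 and 10.63 in AL liver and 12.63, 13.03, 12.12 and 11.94 in CR. The groups did not overlap, and the lower CR values were the arrays of chip 3. The difference was 1.66 ± 0.27 (adjusted p = 2.8e-04), and 2.06 without chips 2 and 3 (adjusted p = 2.9e-04). Slc37a4, which carries glucose-6-phosphate to the phosphatase, was at 10.11, 10.3 and 10.19 in AL and at 11.6, 11.67, 11.56 and 11.59 in CR. Its rise of 1.4 ± 0.15 (adjusted p = 3.6e-06) compared with 1.43 without those chips (adjusted p = 1.6e-04).

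G6pc, the phosphatase, was already bright in AL, at 13.77, 13.53 and 12.71, and reached 14.33, 14.79, 15.05 and 14.71 in CR. The groups did not overlap, and AL replicate 3 was the lowest array. The rise was 1.39 ± 0.25 (adjusted p = 5.7e-04), and 1.22 without chips 2 and 3 (adjusted p = 0.012). Pcx, which makes oxaloacetate from pyruvate, lay at 9.6, 9.94 and 10.04 in AL and at 10.3, 10.29, 10.17 and 10.44 in CR. Its rise was smaller, 0.44 ± 0.14 (adjusted p = 0.024), with 0.43 without the exchanged chips (adjusted p = 0.081), and the call was lost without AL replicate 1, at 0.31.

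Creb3l3 encodes a liver transcription factor anchored in the endoplasmic reticulum that is known for its part in the fasting response. It stood at 11.52, 11.62 and 11.8 in AL and at 11.01, 11.5, 10.99 and 10.87 in CR, with all CR arrays below AL. The fall of 0.56 ± 0.17 (adjusted p = 0.023) did not pass without chips 2 and 3, at -0.39 (adjusted p = 0.2). Fbp1 (0.28 ± 0.17), Pygl (0.23 ± 0.16), Slc2a2 (0.22 ± 0.16) and Gys2 (-0.21 ± 0.21) were not called, at adjusted p of 0.24, 0.31, 0.34 and 0.5. The 95% interval of Fbp1 ran from -0.08 to 0.63. The second Pygl probe passed at 0.56, as did 1 of the other Slc2a2 probes at 0.45.

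**Figure D1:**
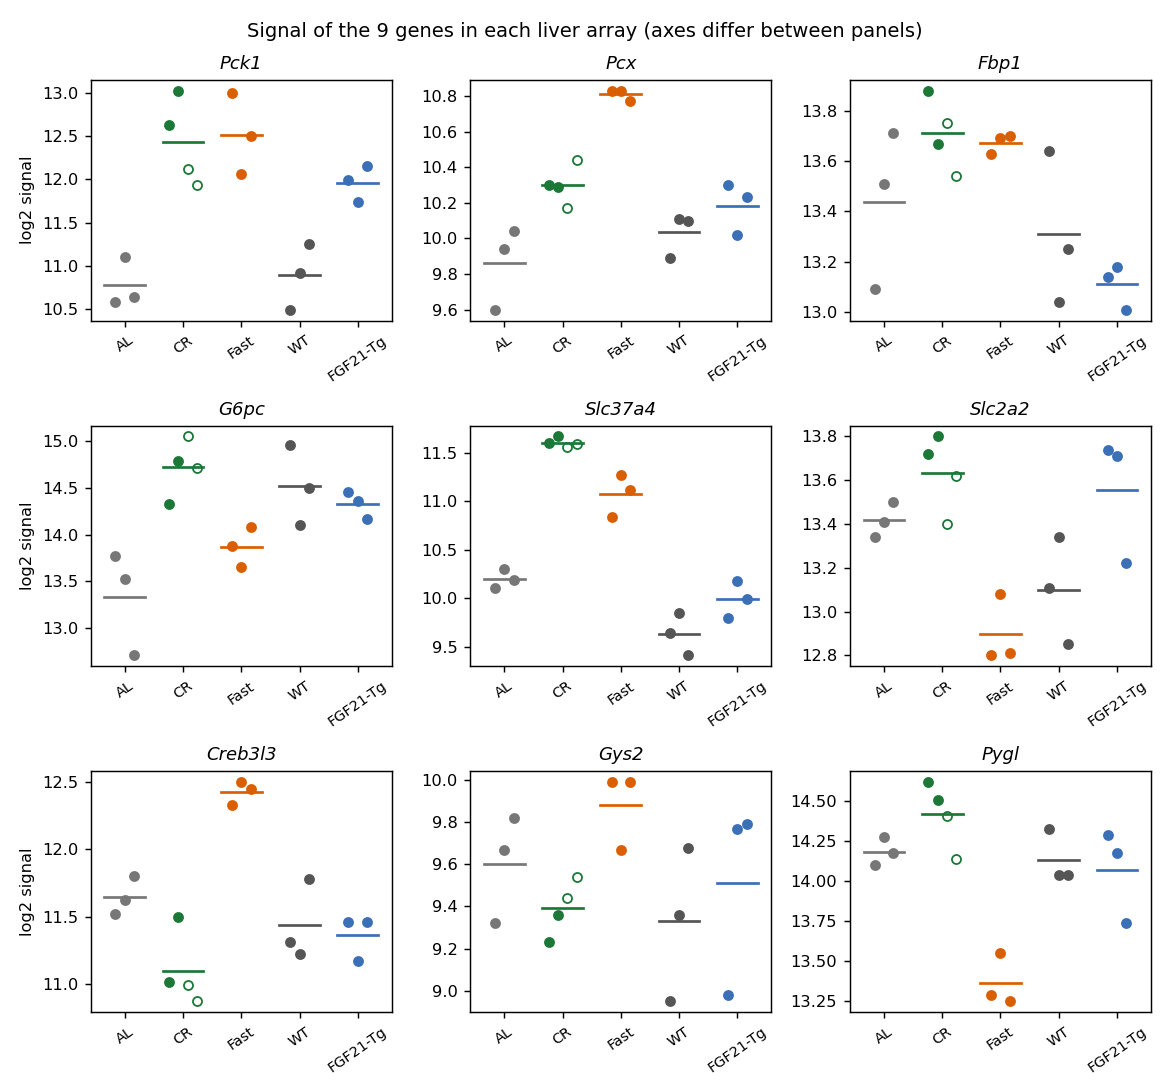
Log2 signal (vertical axis) of the 9 genes in each of the 16 liver arrays by group; each circle is an array, open circles are arrays of chip 3, and bars are group means. Pck1, Slc37a4 and G6pc in CR lay above every AL array, and Creb3l3 in Fast above every other array.

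A 24 hr fast was measured against the same AL arrays, all on chip 1. Of the 9 genes 4 rose and 2 fell, where 8.44% of all genes tested rose and 9.7% fell, and the median was 0.54 against 0 over all genes. Pck1 and Slc37a4 passed again, now together with a larger Pcx value and a rise of Creb3l3. Glycogen phosphorylase and the glucose transporter Slc2a2 were lower.

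Pck1 reached 13, 12.06 and 12.5 in Fast, 1.75 ± 0.29 above AL (adjusted p = 6.1e-04). Pcx was at 10.83, 10.83 and 10.77, above every array of the other 4 groups, and 0.95 ± 0.15 above AL (adjusted p = 3.3e-04). Slc37a4, at 10.84, 11.27 and 11.12, was 0.88 ± 0.16 higher (adjusted p = 0.0011). Creb3l3 rose by 0.78 ± 0.18 (adjusted p = 0.0097) to 12.33, 12.5 and 12.45, above all 13 other liver arrays.

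Pygl, liver glycogen phosphorylase, which frees glucose units from glycogen, had log2 signals of 14.1, 14.28 and 14.18 in AL and 13.29, 13.55 and 13.25 in Fast. The groups did not overlap and the fall was 0.82 ± 0.17 (log2 fold change -0.82, adjusted p = 0.0042), with -0.57 and no call for the second probe. Slc2a2 lay at 13.34, 13.41 and 13.5 in AL and at 12.8, 13.08 and 12.81 in Fast (log2 fold change -0.52 ± 0.17, adjusted p = 0.063). Of its other probes, 1 passed at -0.62 and 1 did not at -0.39, and the call was lost on leaving out any of the 6 arrays but Fast replicate 2, with values from -0.61 to -0.47. G6pc, at 13.88, 13.66 and 14.08, overlapped the AL range and was not called (0.54 ± 0.26, adjusted p = 0.21, 95% interval -0.02 to 1.1), nor were Gys2 (0.28 ± 0.23, adjusted p = 0.49) and Fbp1 (0.24 ± 0.18, adjusted p = 0.44).

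Set against each other directly, Fast and CR differed in 6 of the 9 genes, where 24.9% of all genes tested differed in either direction. Creb3l3 was 1.33 ± 0.17 higher in Fast than in CR (adjusted p = 7.3e-05), and 1.17 without chips 2 and 3 (adjusted p = 0.0029). Pcx was also higher in Fast, by 0.51 ± 0.14 (adjusted p = 0.016), but not with median scaling (0.37, adjusted p = 0.17). Pygl was lower in Fast (-1.05 ± 0.16, adjusted p = 3.2e-04), as were Slc2a2 (-0.74 ± 0.16, adjusted p = 0.0051), Slc37a4 (-0.52 ± 0.15, adjusted p = 0.019, and -0.41 with no call without Fast replicate 1) and G6pc (-0.85 ± 0.25, adjusted p = 0.025). These calls held without the exchanged chips except that of G6pc, at -0.68 (adjusted p = 0.16). All probes of Pygl and Slc2a2 passed in this comparison. Pck1 did not differ detectably (0.09 ± 0.27), with a 95% interval from -0.48 to 0.66, nor did Fbp1 or Gys2, glycogen synthase of the liver, at 0.49 ± 0.21 (adjusted p = 0.13). Gys2 passed without background correction (0.4) and in a fit of these groups alone (0.49, adjusted p = 0.045).

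In FGF21-Tg liver, Pck1 was the only gene of the 9 that passed. Pck1 lay at 10.49, 10.92 and 11.25 in WT and at 11.99, 11.74 and 12.16 in FGF21-Tg, with no overlap. The rise was 1.07 ± 0.29 (adjusted p = 0.058) and 1.07 without chips 2 and 3 (adjusted p = 0.04), in a comparison where 3.27% of all genes tested rose and 2.36% fell. With the chip as a block it was 0.71 and not called (adjusted p = 0.43). The same block rests on WT replicate 3 alone, since the other WT arrays share no chip with FGF21-Tg. The call was also lost on leaving out WT replicate 1 (0.87, adjusted p = 0.19) or 2 (1.09, adjusted p = 0.17), or FGF21-Tg replicate 1 (1.06, adjusted p = 0.11) or 3 (0.97, adjusted p = 0.15).

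The other 8 genes were not called in FGF21-Tg, with values from -0.2 ± 0.18 for Fbp1 to 0.46 ± 0.17 for Slc2a2 (adjusted p = 0.18), and the median of the 9 was 0.15 against 0 over all genes. The other Slc2a2 probes were at -0.05 and 0.06, while the brightest passed without FGF21-Tg replicate 3 (0.62, adjusted p = 0.084). G6pc was at 14.96, 14.1 and 14.5 in WT and at 14.46, 14.36 and 14.17 in FGF21-Tg, so the groups overlapped. Its difference was -0.19 ± 0.26, and the 95% interval from -0.75 to 0.37 lay below the value seen in CR. Slc37a4 was at 9.64, 9.85 and 9.41 in WT and at 9.8, 10.18 and 9.99 in FGF21-Tg (0.35 ± 0.16, adjusted p = 0.24).

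Whether the transgene and the diets differed was tested on the differences themselves. The effect of FGF21-Tg was smaller than that of CR for G6pc (-1.57 ± 0.36, adjusted p = 0.011), and for Slc37a4 (-1.05 ± 0.21, adjusted p = 0.0055), 2 of the 9 genes where 18.2% of all genes passed. Without chips 2 and 3 these were -1.41 (adjusted p = 0.051) and -1.08 (adjusted p = 0.022). Against the effect of Fast 4 of 9 passed, where 12.4% of all genes did. Slc2a2 (0.97 ± 0.25, adjusted p = 0.024) and Pygl (0.76 ± 0.24, adjusted p = 0.069) had the higher value in FGF21-Tg. These rest on the brightest probe of each, since the other Slc2a2 probes (0.57 and 0.46, adjusted p = 0.24 and 0.35) and the second Pygl probe (0.46, adjusted p = 0.43) did not pass. Pcx (-0.8 ± 0.21, adjusted p = 0.026) and Creb3l3 (-0.85 ± 0.26, adjusted p = 0.057) had the lower. For Pck1 the transgene's effect did not differ detectably from that of CR (-0.59 ± 0.4, adjusted p = 0.38) or of Fast (-0.68 ± 0.41, adjusted p = 0.35).

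The control groups also differed in these genes. G6pc was 1.18 ± 0.26 higher in WT than in AL liver (adjusted p = 0.026), with no overlap, and Slc37a4 was lower (-0.57 ± 0.16, adjusted p = 0.061), 2 of 9 genes where 5.24% of all genes passed. Igfbp1, an insulin-repressed transcript of the liver, was 3.06 ± 0.5 higher in WT than in AL (adjusted p = 0.0037), and pyruvate kinase Pklr was lower (-1.14 ± 0.26, adjusted p = 0.029). AL and WT arrays shared no chip, so chip and control group cannot be told apart by a within-chip value. With the chip as a random block G6pc stayed called at 1.15 (adjusted p = 0.066) and Slc37a4 did not (-0.57, adjusted p = 0.12). In a fit of WT and AL alone neither was called. Leaving out 1 replicate at a time left 0 to 2 of the 9 genes called. Each response is therefore given against its own controls, and CR and Fast share theirs. The differences between effects given above include these gaps between WT and AL. G6pc signals in FGF21-Tg (14.17 to 14.46) overlapped those in CR (14.33 to 15.05), while those of Slc37a4 (9.8 to 10.18 and 11.56 to 11.67) did not.

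Ranked by response, Pck1 stood first of the 9 in all 3 comparisons, at 1.66 in CR, 1.75 in Fast and 1.07 in FGF21-Tg. In CR the order went on with Slc37a4, G6pc, Pcx, Fbp1, Pygl, Slc2a2, Gys2 and Creb3l3, and of the 8 neighbouring pairs only G6pc and Pcx differed by more than 2 standard errors (0.95 ± 0.35). In Fast it was Pcx, Slc37a4, Creb3l3, G6pc, Gys2, Fbp1, Slc2a2 and Pygl. There the pairs Pck1 and Pcx (0.8 ± 0.32), Fbp1 and Slc2a2 (0.76 ± 0.22) and Slc2a2 and Pygl (0.3 ± 0.14) passed that limit. In FGF21-Tg the order after Pck1 was Slc2a2, Slc37a4, Gys2, Pcx, Pygl, Creb3l3, G6pc and Fbp1, and no neighbouring pair passed it, the step from Pck1 to Slc2a2 being 0.62 ± 0.38. The place of Slc2a2 there comes from its brightest probe. Without AL replicate 1, G6pc (1.6) stood above Pck1 (1.57) in CR.

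**Figure D2:**
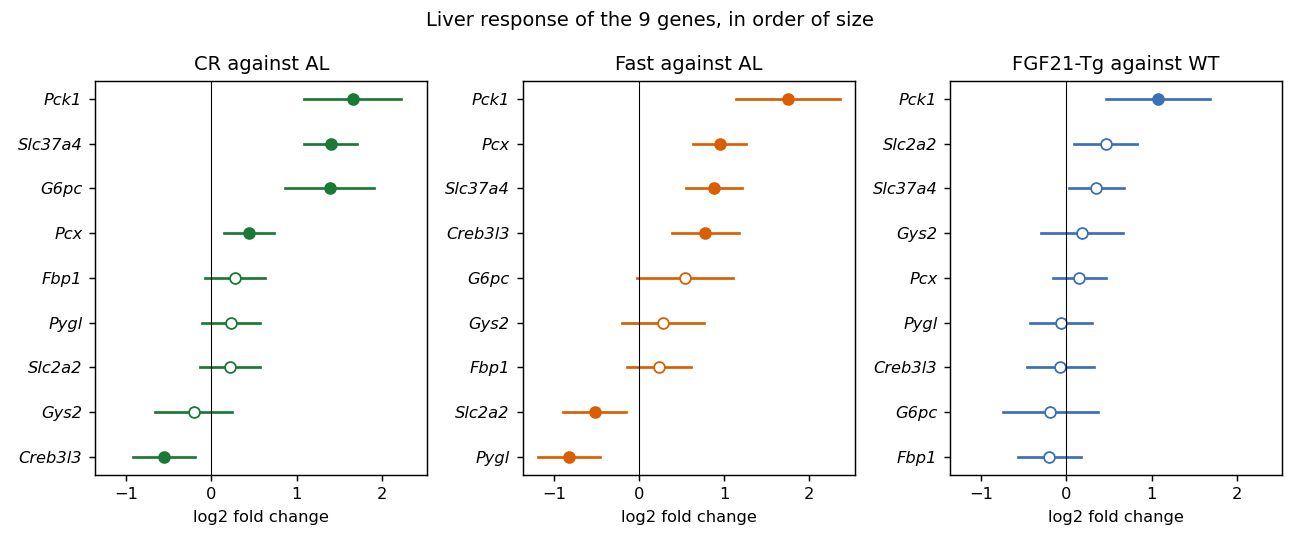
Log2 fold change (horizontal axis) of the 9 genes in liver for CR and Fast against AL and FGF21-Tg against WT, each panel ordered by size; lines are 95% intervals, and filled points passed an adjusted p under 0.1. Pck1 is at the top of each panel, and Creb3l3 is at the bottom in CR (-0.56) but above 0 in Fast (0.78).

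Other genes of glucose production were counted in lists by role. Each count stands against the shares of all genes tested, of which 17.6% rose and 17.9% fell in CR, 8.44 and 9.7% in Fast, and 3.27 and 2.36% in FGF21-Tg. Of 20 regulators and hormone receptors tested, 11 rose and 1 fell in CR, 6 rose and 0 fell in Fast, and 4 rose and 1 fell in FGF21-Tg. The median log2 fold changes of the list were 0.62, 0.3 and 0.14, and those of all genes were at most 0.01. Ppargc1a, the coactivator that turns on Pck1 and G6pc, was at 6.8, 6.84 and 6.37 in AL, at 9.35, 9.94, 10.09 and 10.29 in CR and at 8.87, 8.03 and 8.78 in Fast. It lay at 7.02, 6.69 and 7.52 in WT and at 8.13, 8.3 and 8.73 in FGF21-Tg. The groups did not overlap in any of the comparisons, with rises of 3.25 ± 0.26 in CR (adjusted p = 2.7e-07), 1.89 ± 0.28 in Fast (adjusted p = 2.4e-04) and 1.31 ± 0.28 in FGF21-Tg (adjusted p = 0.018).

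Igfbp1 rose by 5.83 ± 0.47 in CR, 4.16 ± 0.5 in Fast and 1.97 ± 0.5 in FGF21-Tg (adjusted p = 0.044), the largest rise of the list in each. Igfbp1 and Tat are on this list as targets of insulin and glucocorticoid and are not regulators themselves. Tat, a glucocorticoid-induced aminotransferase, rose in CR (2.2 ± 0.37) and Fast (2.06 ± 0.39), and was at 0.7 ± 0.39 in FGF21-Tg, which did not pass (adjusted p = 0.38). Cebpb, a transcription factor of the fasting program, rose in FGF21-Tg by 0.77 ± 0.22 (adjusted p = 0.078, and 0.1 with no call without chips 2 and 3), and the glucagon receptor Gcgr fell there (-0.74 ± 0.21, adjusted p = 0.068). Cebpa, which activates many hepatocyte genes, fell in CR (-1.45 ± 0.29, adjusted p = 0.0013). Between Fast and CR, Ppargc1a (-1.36 ± 0.26), Igfbp1 (-1.67 ± 0.47) and the kinase Sik1 (-1.27 ± 0.35) were lower in Fast, while Ppara (0.95 ± 0.31) and Gcgr (0.48 ± 0.19) were higher. Of these 5, only the value of Ppargc1a passed without chips 2 and 3 (-1.09, adjusted p = 0.036).

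Of 13 genes for the entry of substrate, 3 rose and 2 fell in CR, 7 rose and 1 fell in Fast, and none of the 13 passed in FGF21-Tg. The CR counts lie near the shares of all genes. Got1, the cytosolic aspartate aminotransferase of the oxaloacetate shuttle, rose by 2.22 ± 0.3 in CR and by 2.16 ± 0.32 in Fast. Mitochondrial malate dehydrogenase Mdh2 (0.88 ± 0.16) and alanine aminotransferase Gpt (0.67 ± 0.2) were the others that rose in CR, and Gpt also rose in Fast (0.74 ± 0.22). The glycerol channel Aqp9 fell in CR (-0.67 ± 0.12), and the mitochondrial citrate carrier Slc25a1 fell in both, at -0.65 ± 0.15 and -0.94 ± 0.17. The dicarboxylate carrier Slc25a10 rose in Fast (0.81 ± 0.18) and was 0.96 ± 0.17 higher in Fast than in CR, as was lactate dehydrogenase Ldha at 0.97 ± 0.16. Of the glycerol phosphate dehydrogenases, the cytosolic Gpd1 was higher in Fast than in CR (0.68 ± 0.26) and the mitochondrial Gpd2 lower (-0.58 ± 0.22).

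Of 5 opposing glycolytic genes tested, 2 rose and 1 fell in CR, 1 rose and 2 fell in Fast, and 0 passed in FGF21-Tg. Pklr, liver pyruvate kinase, which undoes the work of Pcx and Pck1, was at 9.72, 9.75 and 9.5 in AL, 9.84, 9.93, 10 and 10.74 in CR and 6.69, 6.68 and 6.48 in Fast. It fell in Fast (-3.04 ± 0.26, adjusted p = 1.3e-06) and was at 0.47 ± 0.24 in CR (adjusted p = 0.16), with a difference of Fast from CR of -3.51 ± 0.24 (adjusted p = 1.9e-07). Pfkfb2, which sets the level of fructose 2,6-bisphosphate, rose in CR (1.3 ± 0.19) and Fast (1.35 ± 0.2). Pdha1, a subunit of pyruvate dehydrogenase, rose in CR (0.82 ± 0.17) and was lower in Fast than in CR (-0.77 ± 0.17). The liver phosphofructokinase Pfkl fell in CR (-0.45 ± 0.17), and the glucokinase regulator Gckr fell in Fast (-0.61 ± 0.2) and was lower there than in CR (-0.76 ± 0.19). Of the 3 reversible steps tested, all rose in CR, Pgam1 by 0.73 ± 0.18, Gapdh by 0.41 ± 0.12 and Tpi1 by 0.36 ± 0.14. In Fast 1 rose, Tpi1 (0.5 ± 0.14), with Pgam1 (-0.47 ± 0.18) and Gapdh (-0.35 ± 0.12) lower than in CR, and none was called in FGF21-Tg.

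Of 14 further glycogen genes, 2 rose and 3 fell in CR, near the shares of all genes, 0 rose and 2 fell in Fast, and 0 rose and 2 fell in FGF21-Tg. Ppp1r3c, a glycogen-targeting subunit of protein phosphatase that favours synthesis, passed in each of the 3, at -1.05 ± 0.26, -1.04 ± 0.27 and -1.02 ± 0.27 (adjusted p = 0.0061, 0.019 and 0.056). Its log2 signal was 12.76, 12.64 and 12.01 in AL and 11.9, 11.37, 10.87 and 11.56 in CR. Of the phosphorylase kinase subunits, which turn on glycogen breakdown, Phkb (-1.28 ± 0.23, adjusted p = 5.6e-04) and Phka2 (-0.36 ± 0.15) fell in CR, while Phkg2 (0.43 ± 0.15) rose, as did the glycogen synthase kinase Gsk3b (0.48 ± 0.17). Ugp2, which makes UDP-glucose, fell in Fast (-0.62 ± 0.18), and Nhlrc1, a ubiquitin ligase that acts on glycogen proteins, fell in FGF21-Tg (-0.85 ± 0.2, adjusted p = 0.027). Against CR, Phkb (0.85 ± 0.23) and the lysosomal glucosidase Gaa (0.61 ± 0.21) were higher in Fast, and the glycogen primer Gyg was lower (-0.76 ± 0.25).

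Gluconeogenesis is known to be stronger in periportal than in pericentral hepatocytes. Of 8 pericentral genes 0 rose and 7 fell in CR, 1 rose and 2 fell in Fast, and 1 rose and 0 fell in FGF21-Tg. Glutamine synthetase, Glul, was at 9.99, 9.78 and 9.73 in AL, 7.63, 7.82, 7.44 and 7.26 in CR and 9.01, 9.08 and 8.86 in Fast. It fell by 2.3 in CR (-2.3 ± 0.23, adjusted p = 2.2e-06) and less in Fast (-0.85 ± 0.24), and the difference of Fast from CR was 1.45 ± 0.23 (adjusted p = 4.0e-04). The cytochrome Cyp1a2 (-1.82 ± 0.61) and the receptor Lgr5 (-1.28 ± 0.22) fell in CR, and Lgr5 in Fast as well (-0.96 ± 0.23). The gene that rose in Fast was ornithine aminotransferase, Oat (0.76 ± 0.19), which was 1.6 ± 0.17 higher in Fast than in CR. The glutamate transporter Slc1a2 rose in FGF21-Tg (0.75 ± 0.15) and was 0.66 ± 0.14 higher in Fast than in CR.

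Of 6 periportal genes 2 rose and 2 fell in CR, 3 rose and 2 fell in Fast, and 0 rose and 1 fell in FGF21-Tg. Those that rose belong to the urea cycle, Arg1 (0.6 ± 0.12) and Ass1 (0.56 ± 0.14) in CR, and Arg1 (0.72 ± 0.13), Cps1 (0.52 ± 0.16) and Ass1 (0.47 ± 0.14) in Fast. Cyp2f2, an airway and periportal cytochrome, fell in CR (-1.24 ± 0.14) and Fast (-0.6 ± 0.15) and was 0.64 ± 0.14 higher in Fast than in CR. The cadherin Cdh1 passed in all 3 comparisons with controls, at -0.44 ± 0.18, -0.68 ± 0.2 and -0.65 ± 0.2.

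Of the listed genes named here, 20 of 27 values in CR, 21 of 21 in Fast, 6 of 8 in FGF21-Tg and 12 of 21 for Fast against CR kept their calls without chips 2 and 3, and all kept their direction. The lost CR calls were Gpt (0.55, adjusted p = 0.14), Pfkl (-0.44, adjusted p = 0.16), Tpi1 (0.36, adjusted p = 0.16), Gsk3b (0.41, adjusted p = 0.17), Phka2 (-0.3, adjusted p = 0.29), Cdh1 (-0.33, adjusted p = 0.33) and Cyp1a2 (-1.71, adjusted p = 0.15). For Fast against CR they were the 4 regulators above, Gpd1 (0.74), Gpd2 (-0.41), Pgam1 (-0.49), Gapdh (-0.33) and Gaa (0.48). In FGF21-Tg they were Cebpb and Cdh1 (-0.65, adjusted p = 0.11). The CR counts of rises and falls were then 10 and 1 for regulators, 3 and 2 for entry, 2 and 0 for opposing steps, 2 and 0 for reversible steps, 1 and 2 for glycogen, 2 and 1 for periportal and 0 and 5 for pericentral genes. The other counts that changed were 6 rises for entry and 1 for glycogen in Fast, and 3 rises for regulators and 0 falls for periportal genes in FGF21-Tg.

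**Figure D3:**
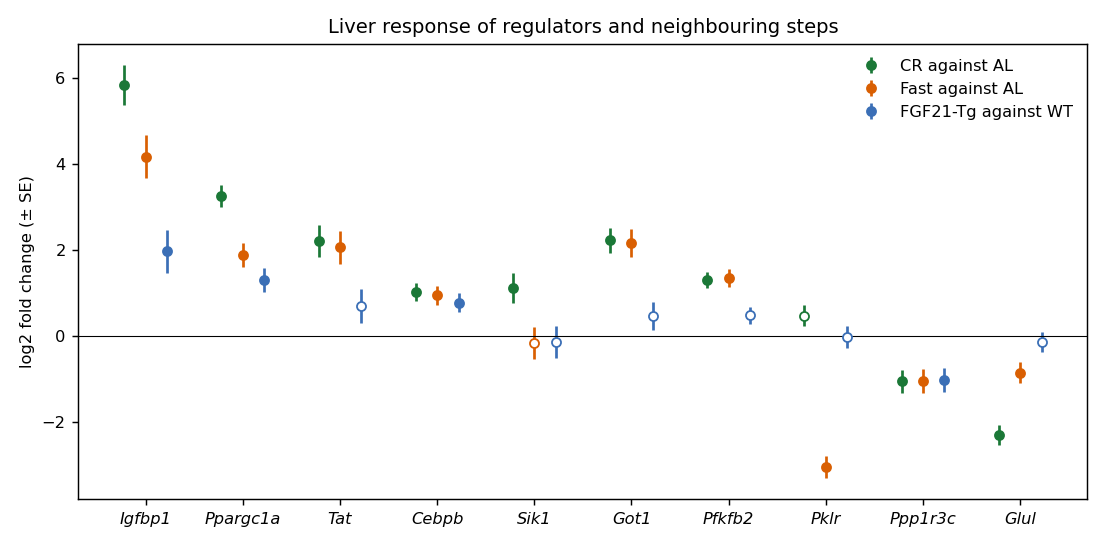
Log2 fold change ± SE (vertical axis) in liver of 10 genes of the wider lists for CR, Fast and FGF21-Tg, each against its controls; filled points passed an adjusted p under 0.1. Igfbp1 and Ppargc1a are above 0 in all 3, Pklr is at -3.04 in Fast, and Ppp1r3c lies near -1 in each.

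Markers of other cells moved in some liver groups. Of 4 macrophage markers tested 2 fell and 1 rose in CR and 3 fell in Fast, with summed log2 signals of 11.86 to 12.55 in AL, 11.46 to 12.09 in CR and 10.97 to 11.89 in Fast. Of 3 erythroid markers 3 fell in CR, 2 in Fast and 1 in FGF21-Tg, with sums of 15.03 to 15.31 in AL, 13.42 to 14.73 in CR, 14.4 to 14.75 in Fast, 14.74 to 15.05 in WT and 14.09 to 14.99 in FGF21-Tg. Of the 4 pancreas markers listed 1 was tested, the elastase Cela1, and it was lower in all 3 comparisons (-1.78 ± 0.16 in CR, -1.67 ± 0.18 in Fast and -2.19 ± 0.18 in FGF21-Tg). The pancreas sums were 10.98 to 11.34 in AL, 9.2 to 9.64 in CR, 9.43 to 9.66 in Fast, 11.3 to 11.71 in WT and 9.21 to 9.63 in FGF21-Tg. Of 6 muscle markers 0 were detected in liver. The part of these markers in the results was not tested.

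Over the 16 liver arrays the 9 genes did not follow a single pattern. Pearson's r was 0.78 for Pygl and Slc2a2 and 0.74 for Pck1 and Pcx, but -0.8 for Creb3l3 and Pygl and 0.3 for Pck1 and G6pc. The genes most like Pck1 among 9019 were Ttpa (r = 0.918), Amigo2 (0.906) and Gata6 (0.894). Those most like G6pc were Supt5 (0.854), Mmp14 (0.85) and Dapk1 (0.846), and those most like Gys2 were Mfsd4b1, Igfbp4 (0.827) and Med13 (0.766). These correlations share 5 groups and 4 chips and are given as descriptions.

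Across tissues the genes were compared in the WT arrays alone, which lie outside the exchanged chips, after quantile normalization over all arrays. G6pc was at 14.37 ± 0.4 (SD, n = 3) in liver, 5.81 ± 0.35 in fat and 6 ± 0.6 in muscle. Pck1 was at 11.05 ± 0.35 in liver, 10.02 ± 1.18 in fat and 5.72 ± 0.58 in muscle. Pcx was at 11.12 ± 0.48 in fat and 10.25 ± 0.12 in liver, with the fat arrays at 10.68 to 11.64 above the liver arrays at 10.11 to 10.32. Slc37a4 was at 9.87 ± 0.21 in liver, 9.38 ± 0.11 in muscle and 6.09 ± 0.16 in fat, and Pygl at 14.01 ± 0.14 in liver and 13.01 ± 0.54 in fat. Creb3l3 was detected on 0 of 3 WT fat arrays and Gys2 on 1.

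In fat the fasting comparison lay wholly on chip 3, and so rests on the exchange. Pck1 was at 10.56, 10.73 and 10.99 in AL and at 12.48, 12.52 and 12.36 in Fast, with no overlap. The rise of 1.69 ± 0.46 (adjusted p = 0.018) stood beside 1.75 in liver, with a difference of 0.06 ± 0.56 (liver minus fat, adjusted p = 0.96). Of 13 genes of the glyceroneogenesis list tested 5 rose and 3 fell, where 12.3% of all genes in fat rose and 15.5% fell. The list also holds genes that are not steps of the route, such as Pnpla2, Aqp7 and Slc2a4. Without positions C and D, which the tissue markers cannot place, only 1 AL array was left, assumed in the fit to vary like the other groups. The values were then 3.71 for Pdk4 and 1.44 for Pck1, and a call kept or lost there says nothing of how far the results rest on those positions.

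Pdk4, the kinase that spares pyruvate by blocking pyruvate dehydrogenase, was at 9.14, 9.09 and 9.61 in AL fat and at 13.13, 13.26 and 13.69 in Fast, a rise of 4.08 ± 0.44 (adjusted p = 2.8e-05). Gpam, which adds the first acyl chain to glycerol phosphate, rose by 0.94 ± 0.33 (adjusted p = 0.054). The glycerol channel Aqp7 (0.41 ± 0.16) and the lipase Pnpla2 (0.3 ± 0.1) also passed, at adjusted p of 0.087 and 0.054. The Pnpla2 probe lay near the top of the scale in AL, CR and Fast fat, with raw intensities of 53294 to 68120 on arrays whose brightest probes were at 67015 to 72916, so the size of its differences is not known. With median scaling neither passed in Fast, at 0.08 for Pnpla2 (adjusted p = 0.87) and 0.35 for Aqp7 (adjusted p = 0.28), and Pnpla2 did not with quantile normalization over all arrays (0.21, adjusted p = 0.17). The calls of these 3 were lost on leaving out single arrays: Gpam without AL replicate 1 or Fast replicate 1 or 2 (0.76 to 1.04 over all such fits), Pnpla2 without AL replicate 2 or Fast replicate 2 or 3 (0.26 to 0.33), and Aqp7 without any of AL and Fast but Fast replicate 2 (0.32 to 0.59). Gpd1, which makes glycerol phosphate, was at 9.95, 10.91 and 10.13 in AL and 8.49, 8.14 and 7.63 in Fast (-2.24 ± 0.38, adjusted p = 9.0e-04). Agpat2, the next acyltransferase (-1.46 ± 0.31, adjusted p = 0.0043), and the insulin-responsive glucose transporter Slc2a4 (-1.06 ± 0.26, adjusted p = 0.0094) fell as well, the last without a call in the deposited log2 values (-0.32). Pcx (-0.52 ± 0.24, adjusted p = 0.15), Got1 (0.64 ± 0.31), Mdh1 (0.04 ± 0.21), Pparg (-0.07 ± 0.16) and Lipe (0.03 ± 0.22) were not called, though 1 other probe of Mdh1 (-1.01) and 1 of Pparg (-2.43) were. Pcx passed without AL replicate 3, at -0.69 on the log2 scale.

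Among the 9 genes, Pygl (-0.77 ± 0.22, adjusted p = 0.025) and Slc37a4 (-0.77 ± 0.29, adjusted p = 0.072) also fell in fasted fat. The call of Pygl was lost without AL replicate 2 or Fast replicate 3, and that of Slc37a4 without AL replicate 1 or 2 or Fast replicate 1 or 3, with values from -0.91 to -0.58 and from -1.03 to -0.51. Pygl also missed the call with median scaling (-0.76, adjusted p = 0.12) and on its second probe (-0.5, adjusted p = 0.31), and Slc37a4 in the deposited log2 values (-0.02, adjusted p = 0.23). Gys2 (0.55 ± 0.34), G6pc (-0.12 ± 0.42), Fbp1 (-0.1 ± 0.74) and Slc2a2 (-0.78 ± 0.45) were not called. Slc2a2 was detected on 2 of 3 AL and 0 of 3 Fast arrays, Creb3l3 on 2 and 1 and Gys2 on 0 and 1. Of 5 adipocyte markers tested 2 fell and 0 rose, with sums of 16.75 to 16.86 in AL and at most 16.14 in Fast. The hepatocyte markers, of which 3 were tested in fat and 0 called, summed to 10.76 to 13.68 in AL and 10 to 11.71 in Fast, and the muscle markers to 9.92 to 10.67 and 11.55 to 13.63. Of 4 endothelial markers tested 3 rose, with sums of 13.06 to 13.21 in AL and 13.72 to 13.98 in Fast, and Cela1 was lower (-1.21 ± 0.24). Their part in the results was not tested.

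In fat CR lay wholly on chip 2 and AL on chip 3, so diet and chip cannot be told apart, and no value can be had without these chips. Of the 13 genes 7 rose and 1 fell, where 22.4% of all genes rose and 25.1% fell. Pck1 was at 11.07, 10.64, 10.46 and 10.73 in CR and overlapped AL (-0.03 ± 0.43), with a 95% interval from -0.96 to 0.89. The genes that rose were Pcx (1.7 ± 0.22, adjusted p = 3.9e-05), Mdh1 (1.94 ± 0.19), Gpd1 (1.96 ± 0.35), Gpam (1.73 ± 0.3), Pdk4 (2.23 ± 0.41) and Slc2a4 (1.28 ± 0.24), and Aqp7 was lower (-1.01 ± 0.15). Pnpla2, again near the top of the scale, passed at 0.31 ± 0.1 but not with median scaling (0.4, adjusted p = 0.17). Got1 (0.44 ± 0.29), Agpat2 (0.06 ± 0.29), Lipe (0.09 ± 0.2) and the brightest Pparg probe (-0.23 ± 0.15) were not called. All 3 probes of Mdh1, the cytosolic malate dehydrogenase, rose, while the other Pparg probes passed in opposite directions, at 0.55 and -1.08.

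Gys2 was the largest of the 9 genes in fat CR. It was not above background on any of the 3 AL arrays, at 4.96, 5.22 and 4.75, and was detected on all 4 CR arrays at 9.24, 9.25, 8.85 and 9.11. Against the lowest detected signal of each AL array it was at least 8.7-fold higher in CR (measured means 9.11 and 4.98). Most fat arrays that detected it were of CR and FGF21-Tg, where it is high, so a call of Gys2 in fat is no support. Pygl was at 13.26, 13.76 and 13.11 in AL and at 14.88, 14.9, 14.7 and 14.78 in CR (1.43 ± 0.21, adjusted p = 1.0e-04), and Slc37a4 rose by 0.62 ± 0.27 (adjusted p = 0.082). The call of Slc37a4 was lost without AL replicate 1 or 3 or CR replicate 1, 3 or 4, with values from 0.45 to 0.84, and with median scaling (0.48, adjusted p = 0.18). G6pc (0.39 ± 0.39), Fbp1 (0.46 ± 0.69) and Slc2a2 (-0.51 ± 0.42) were not called. Slc2a2 was detected on 1 of 4 CR arrays. Creb3l3 was detected on 2 of 3 AL, 1 of 3 Fast and none of the other fat arrays, so it was tested only through the groups where it is high. No difference in fat alone is given for it. Hepatocyte markers summed to 9.11 to 13.29 on the CR arrays. Of 5 adipocyte markers 1 rose and 2 fell, with sums of 15.87 to 15.91 in CR. Of 4 endothelial markers 3 fell, with sums of 12.59 to 12.94 in CR, and Cela1 was higher (1.09 ± 0.23). Their part in the results was not tested.

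In FGF21-Tg fat 3 of the 13 genes rose and 0 fell, where 4.34% of all genes in fat rose and 3.45% fell. Pcx was at 11.02, 11.85 and 11.34 in WT and at 12.87, 12.07 and 12.29 in FGF21-Tg (1.01 ± 0.24, adjusted p = 0.035). Mdh1 (0.75 ± 0.21, adjusted p = 0.062) and Slc2a4 (0.81 ± 0.26, adjusted p = 0.097) were the others, and the remaining Mdh1 probes were at -0.31 and -0.04. The brightest Pparg probe did not pass, but its other probes did (0.87 and 0.98, adjusted p = 0.035 and 0.045), and it also passed without WT replicate 1 (0.56) or FGF21-Tg replicate 1 (0.57). Without WT replicate 2, 5 of the 13 passed, with Gpd1 at 1.43 (adjusted p = 0.02) and Gpam at 1.08 (adjusted p = 0.042). With all arrays these were at 0.89 ± 0.38 and 0.64 ± 0.33 and not called, nor were Pdk4 (0.53 ± 0.44), Agpat2 (0.46 ± 0.31), Pnpla2 (0.18 ± 0.1), Got1 (-0.32 ± 0.31), Aqp7 (-0.1 ± 0.16) and Lipe (-0.03 ± 0.22). Gys2 was detected on 1 of 3 WT arrays, at 4.98, 6.17 and 5.07, and on 3 of 3 FGF21-Tg arrays, at 7.58, 6.97 and 6.47. With the WT arrays raised to their lowest detected signal it was at least 2.12-fold higher, a log2 difference of 1.08 where the measured means of 7.01 and 5.41 differ by 1.6. In the deposited log2 values it was not called (0.05, adjusted p = 0.26). Pygl rose by 0.74 ± 0.22 (adjusted p = 0.086), with 1.11 on its second probe (adjusted p = 0.074), and Pck1, at 9.32, 10.4 and 11.47 in WT and 9.86, 11.49 and 11.39 in FGF21-Tg, overlapped (0.52 ± 0.46, adjusted p = 0.56). Slc37a4 was at 0.83 ± 0.29 (adjusted p = 0.12), and G6pc, Fbp1 and Slc2a2 were not called.

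Genotype and chip were largely mixed in this fat comparison. Every WT array came from chip 5, which held just 1 array of the transgenic group, replicate 1. The remaining transgenic arrays came from chip 6, where no WT fat was hybridised. In fits without replicate 1, genotype and chip therefore cannot be told apart. The FGF21-Tg fat arrays were not on the exchanged chips, but their error was estimated with all 16 fat arrays. Without chips 2 and 3 the differences were nearly the same size and none of these passed, with 0.99 for Pcx (adjusted p = 0.36), 1.68 for Gys2 (adjusted p = 0.31) and 0.74 for Pygl (adjusted p = 0.44). The same held in a fit of WT and FGF21-Tg alone, at adjusted p of 0.39 for Pcx and 0.36 for Gys2. The epididymis markers summed to 14.11 in FGF21-Tg replicate 1, 7.7 and 7.53 in replicates 2 and 3, and 8.84, 6.1 and 6.24 in WT. Cela1 was 2.21 ± 0.24 higher in FGF21-Tg fat, 2 of 4 endothelial markers were lower, and their part was not tested. Adipocyte markers, of which 5 were tested and 0 called, summed to 16.64 to 16.74 in WT and 16.36 to 16.61 in FGF21-Tg. Adipoq of this list, at 15.86 to 16.03 in fat, also lay near the top of the scale. Without FGF21-Tg replicate 1 Gys2 was at 1.32 and Pcx at 0.78 (adjusted p = 0.088), while Pygl (0.61), Mdh1 (0.65) and Slc2a4 (0.55) were no longer called. Pygl was also lost without WT replicate 1 (0.47) or FGF21-Tg replicate 3 (0.77), Mdh1 without WT replicate 3 (0.76) or FGF21-Tg replicate 3 (0.81), and Slc2a4 without WT replicate 1 (0.58) or 3 (0.85) or FGF21-Tg replicate 2 (0.89). With median scaling Pygl (0.94), Mdh1 (0.79) and Slc2a4 (0.87) were not called either.

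**Figure D4:**
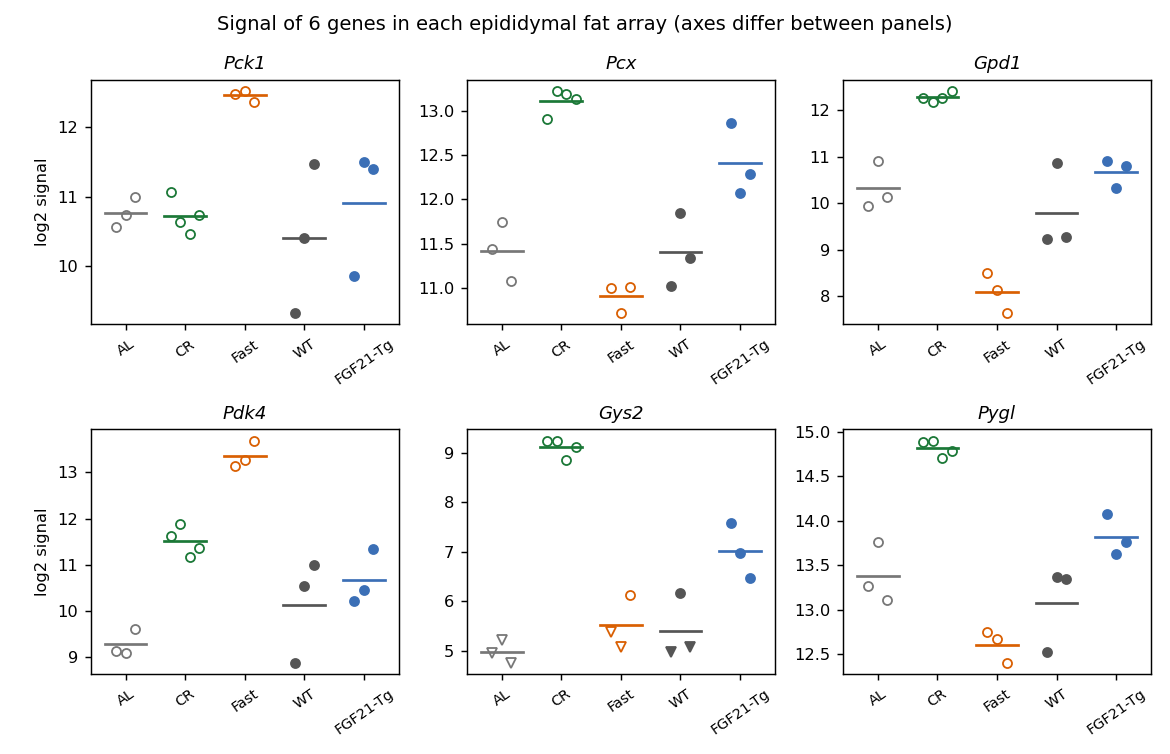
Log2 signal (vertical axis) of 6 genes in each of the 16 epididymal fat arrays by group; each symbol is an array, open symbols are arrays of chips 2 and 3, triangles are arrays with a detection p of 0.05 or more, and bars are group means. Pck1 and Pdk4 are highest in Fast, and Gys2 is above background on all 4 CR and all 3 FGF21-Tg arrays.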

How the data were processed

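RNA of liver, muscle and epididymal fat was hybridised to Illumina mouse bead arrays, and the 48 arrays lie on 6 chips. The authors deposited unnormalized bead intensities from BeadStudio (version not given in the sources used here) and, per the file headers, a detection p-value for each probe and array. The authors also deposited log2 values after background correction, log2 transformation and quantile normalization, which served here as an alternative. Groups came from the labels, after the exchange of chips 2 and 3 described above.

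Intensities were corrected with limma's nec (normexp from the detection p-values, offset 16), quantile normalized within tissue and taken to log2 (limma 3.58.1, R 4.3.3). Probes with 1 symbol that 3 or more arrays of the tissue detected (p-value below 0.05) were kept, and the brightest probe stood for its gene. lmFit and eBayes were fitted over all 5 groups of a tissue, and p-values were adjusted by Benjamini-Hochberg over all genes. The methods used SAM, in place of which limma was run. The scripts were tested on simulated data. No sample column was left unused. Named list genes were, in each list and comparison, the 3 largest rises and the 3 largest falls among genes that passed, and in fat every gene of the list was named, as were the 9 genes. The genes, lists and alternatives were chosen with earlier results of these data known. Alternatives were the deposited labels and values, other backgrounds, scalings, filters, thresholds and fits, blocks by chip and replicate, every probe, and leaving out chips or replicates. A random chip block for WT against AL, and the bound for Gys2 in FGF21-Tg fat, were chosen after seeing the data.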

Additional observations from a re-analysis of the deposited data

Results flagged for a closer look

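In fat, a single array stood apart from its group on 2 occasions, and chance flags about 1 in 20 groups. How many groups were examined is not given, so the 2 cannot be set against that rate. Slc2a2 had a log2 signal of 7.2 on CR replicate 1, with the other CR arrays at 5.01 to 5.33, and Apoa1 of the same array was at 11.69. On CR replicate 4 Apoa1 was at 10.74 and Slc2a2 at 5.09. Slc37a4 was at 6.98 on CR replicate 2, with the others at 7.78 to 7.9.

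Responses that differed between liver and fat were tested as liver minus fat over 8380 genes, by a joint limma fit with Benjamini-Hochberg adjustment. Whether liver and fat arrays came from the same mice is not given in the sources used here, and pairing across tissues was not tested. For CR the differences were -1.26 for Pcx (adjusted p = 5.9e-04), -1.2 for Pygl (adjusted p = 0.0011), 1.7 for Pck1 (adjusted p = 0.018) and 0.78 for Slc37a4 (adjusted p = 0.06). For Fast they were 1.65 for Slc37a4 (adjusted p = 0.001) and 1.46 for Pcx (adjusted p = 6.2e-04). For Creb3l3 in Fast the fitted value was 1.04. Creb3l3 was detected on only 2 of 3 AL and 1 of 3 Fast fat arrays, so its fat term lay near background. The value for Creb3l3 therefore cannot show whether its response to fasting differed between liver and fat. For FGF21-Tg the differences were -0.86 for Pcx (adjusted p = 0.062) and -0.81 for Pygl (adjusted p = 0.085). The fat values of CR and Fast rest on chips 2 and 3, and in fat CR the diet and the chip cannot be told apart. For Gys2 the fitted values were -4.35 in CR and -1.42 in FGF21-Tg. Gys2 was detected on 0 of 3 AL and 1 of 3 WT fat arrays, so these values are no measure of size. With the control arrays of fat raised to their lowest detected signal, the differences were at most -3.33 in CR and -0.9 in FGF21-Tg.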

How the results depend on the processing

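The number of the 9 liver genes that passed was 4 up and 1 down in CR, 4 and 2 in Fast, 1 and 0 in FGF21-Tg, 6 for Fast against CR, 2 and 4 for the effect of FGF21-Tg against those of CR and Fast, and 2 for WT against AL. Of the 13 fat genes 8, 8 and 3 passed in CR, Fast and FGF21-Tg. With the labels as deposited, these became 2 up and 2 down in CR (Pck1 in place 2), 0 and 1 in Fast, 0 up in FGF21-Tg, 3 for Fast against CR, and 0 for both effect differences and for WT against AL, with 2, 1 and 0 in fat. Directions then turned for G6pc (-2.69) and Slc37a4 (-1.08) in liver CR, and for G6pc (3.21), Pcx (-0.83), Slc2a2 (3.17) and Slc37a4 (1.94) for Fast against CR. In fat CR they turned for Pcx (-0.37), Mdh1 (-0.94), Gpd1 (-1.91), Gpam (-1.09), Pdk4 (-2.48), Slc2a4 (-3.33) and Pnpla2 (-0.38). In fat Fast they turned for Pck1 (-2.96), Gpam (-1.43), Aqp7 (-1.6), Slc2a4 (0.18), Pnpla2 (-1.22) and Slc37a4 (1.56). The deposited labels mix tissues within a group.

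Without chips 2 and 3, 0 genes fell in liver CR and 0 fat genes passed in FGF21-Tg, from fewer arrays. Without positions C and D of those chips, 5, 1 and 0 fat genes passed, with only 1 AL array left and its spread taken from the other groups. Without background correction 2 rose in FGF21-Tg liver. Median scaling left 2 for the effect of FGF21-Tg against Fast and 1 in FGF21-Tg fat, and the deposited log2 values 1 for WT against AL. With every probe tested, a gene counted only where all its probes passed in the same direction. This left 0 down in liver Fast, 2 for FGF21-Tg against Fast and 1 in FGF21-Tg fat. In liver Fast the brightest probes of Pygl (-0.82, adjusted p = 0.0047) and Slc2a2 (-0.52, adjusted p = 0.069) still passed. Directions turned for probes of Pparg in fat CR (0.55), Mdh1 in fat Fast (-1.01) and Mdh1 in FGF21-Tg fat (-0.31 and -0.04). An adjusted p under 0.05 left 1 down in Fast, 0 up in FGF21-Tg, 2 for FGF21-Tg against Fast, 1 for WT against AL, and 5 and 1 in fat Fast and FGF21-Tg. Fitting only the groups compared left 0 for WT against AL and 0 in FGF21-Tg fat. The chip as a block left 0 down in CR and 0 up in FGF21-Tg, and as a random block 1 for WT against AL. Other than where noted the cause was not tested.

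Leaving out 1 replicate at a time gave 3 to 4 up and 1 to 1 down in CR, 4 to 4 and 1 to 2 in Fast, 0 to 1 and 0 to 0 in FGF21-Tg, 5 to 6 for Fast against CR, 2 to 3 and 2 to 4 for the effect differences, 0 to 2 for WT against AL, and 8 to 8, 6 to 8 and 1 to 5 in fat. Pck1 held places 1 to 2 in CR, 1 to 1 in Fast and 1 to 1 in FGF21-Tg. Median scaling moved the share of rises among all calls from 46.5 to 33.1% in liver Fast, from 58.1 to 71.1% in FGF21-Tg liver and from 55.7 to 73.6% in FGF21-Tg fat. Deviations of same-numbered samples correlated at -0.05 to 0.2, and those of differently numbered samples at -0.25 to 0.21. With so few arrays in a group these ranges cannot decide whether same-numbered samples are paired. With the replicate block, Pck1 in FGF21-Tg liver was at 1.07 (adjusted p = 0.077), G6pc in CR at 1.39 (adjusted p = 0.0036) and Creb3l3 in CR at -0.48 (adjusted p = 0.074). In fat the block removed the calls of Slc37a4 in CR (0.55) and Fast (-0.77) and of Slc2a4 (0.81) and Pygl (0.74) in FGF21-Tg. In liver it added Gys2 for Fast against CR (0.54). It changed no other call of the 9 genes in liver CR, Fast, FGF21-Tg or Fast against CR. In fat it changed no other call among the 13 genes, Gys2, Pygl and Slc37a4. Single values of the other listed genes and of the effect differences were not examined with the block. Over single genes, 1050 values in the other settings kept direction and call, 96 lost a call, 17 gained one and 26 moved. Dim probes, such as Gys2 in AL fat, limit what differences can be seen.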
